A study of Mus musculus with 39 samples.

Results

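Cytochrome P450 enzymes are heme proteins of the endoplasmic reticulum and mitochondria that insert an oxygen atom into fats, steroids, vitamins, drugs and inhaled chemicals. They draw electrons from partner proteins such as the P450 reductase. Tobacco smoke is best known for inducing the CYP1 enzymes through the aryl hydrocarbon receptor, and the genes described here are the other P450 genes of mouse lung: the CYP2 and CYP3 enzymes that handle foreign chemicals, the CYP4 and CYP2J enzymes that oxidise fatty acids and eicosanoids, and the enzymes that make or break down steroids, bile acids, vitamin D and retinoic acid. The members were all probes whose annotated symbol is Cyp followed by a family number, 1 letter and a gene number, without Cyp1a1, Cyp1a2, Cyp1b1 and Cyp2f2, the last being a club cell enzyme. This gave 68 probes for 64 genes among the 20868 gene probes of the array. Cyp26b1, Cyp2b13, Cyp2d26 and Cyp2j13 had several probes each. Values of Cyp2d26 are those of the probe with the stronger Cy5 signal, unless the weaker is named.

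The samples were pieces of lung from 39 male C57BL/6 x CBA F1 hybrid mice, 1 mouse per array. The labels give an age of 8 to 10 weeks for every group, whatever its exposure or break. The paper gives this age for the mice put to exposure, and the age at sampling is not stated. In 6 week smoke (n = 5) and 12 week smoke (n = 4) mice breathed mainstream tobacco smoke (MTS) nose-only from 2 cigarettes daily on 5 days per week for 6 or 12 weeks, while 6 week sham (n = 5) and 12 week sham (n = 5) were held in restrainers only. In 6 week smoke and break and 12 week smoke and break (n = 5 each) the exposure was followed by 6 weeks without smoke, and 6 week break sham and 12 week break sham (n = 5 each) were their restrained controls. The labels give 3 h after exposure as the sampling time of every array, also of those with a break. Each value is a log2 ratio of lung (Cy5) to a universal mouse reference RNA (Cy3), so that 1 unit is a 2-fold difference. In such bulk tissue, fewer cells of a type and less RNA per cell cannot be told apart.

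The tissue carried its label: all 9 lung epithelium markers listed passed the filter on low signal, and their mean log2 ratio had group medians between 3.89 and 4.67. The 8 arrays of the earliest of the 5 runs of exposure labels, 1 of each group, stood apart. Their epithelium mean was 2.64 to 3.35 where the other 31 arrays had 3.86 to 5.02, and their club cell mean 1.97 to 2.91 against 3.86 to 5.57. The run was a block in every fit. The median Cy5 signal of an array was 268 to 1532, or 2.20 to 8.94 as a ratio to the background around the spots. Between 28 and 67 P450 probes of 68 were above background on a single array. The array labelled 6 week sham replicate 2 stood with the smoke arrays for the CYP1 genes. Its Cyp1a1 value was 6.46, where the 9 smoke arrays ranged from 5.07 to 8.06 and the other 29 arrays from 0.45 to 2.81. Its Cyp1b1 value was 2.00, where the smoke arrays ranged from 1.47 to 2.32 and the other 29 from -1.74 to -0.28. It was kept under its label, and counts are also given without it and the 3 arrays described next. In 3 further arrays, 6 week sham replicate 1, 6 week break sham replicate 4 and 12 week smoke and break replicate 3, the mean of 5 hepatocyte markers was 3.32, 3.29 and 3.54. In the other 36 arrays it was at most 2.39. These 3 arrays weigh on many P450 values, which are therefore also given without them.

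Most P450 genes were detectable in lung, as were most genes of the array. A probe counted as above background where its Cy5 signal passed the array's threshold from negative control spots on 4 or more arrays of any group. By this rule 59 of the 68 probes (56 genes) were above background, against 84.1% of all gene probes. On all 39 arrays, 24 probes for 23 genes were above the threshold and no probe was below it on every array. The share of all gene probes above it on every array is not given here. Among the CYP2 and CYP3 enzymes that act on foreign chemicals, 29 of 33 probes passed and 11 were above the threshold on all arrays: Cyp2a4, Cyp2b9, Cyp2b10, Cyp2b23, both Cyp2b13 probes, Cyp2d9, Cyp2d11, Cyp2e1, Cyp2s1 and Cyp3a13. Among the fatty acid and eicosanoid P450s, 17 of 18 passed and 8 were above on all arrays, namely Cyp2j9, Cyp2j11, Cyp4a31, Cyp4b1, Cyp4f13, Cyp4f15, Cyp4f16 and Cyp4f18.

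In the smaller classes, 5 of 6 cholesterol and bile acid probes passed, with Cyp27a1 (sterol 27-hydroxylase), Cyp39a1 and Cyp7b1 (both oxysterol 7-alpha-hydroxylases) above on all 39 arrays. Cyp7a1, the rate-limiting enzyme of bile acid synthesis in liver, was above on 22 arrays and Cyp8b1 on 8. Of the steroid hormone enzymes, 3 of 4 passed: Cyp17a1 was above on 38 arrays, Cyp21a1 on 37 and Cyp11a1, which cleaves the cholesterol side chain, on 30. Aldosterone synthase Cyp11b2 was above on 6 and did not pass. Of the vitamin D and retinoic acid enzymes, 4 of 6 probes passed. A Cyp26b1 probe was above on all arrays and the vitamin D activating enzyme Cyp27b1 on 36, whereas Cyp24a1 and Cyp26a1, which degrade vitamin D and retinoic acid, were above on 7 and 10 arrays. Cyp20a1, an orphan P450, was above on all 39. The mean log2 ratios of these genes lay near the reference, from -0.37 for Cyp20a1 to 0.36 for Cyp2r1, the vitamin D 25-hydroxylase, apart from Cyp27a1, Cyp7b1 and Cyp26b1, which are described below. The 9 probes that did not pass were Cyp2c38, Cyp2c39, Cyp2d40, Cyp3a16, the second Cyp2j13 probe, Cyp8b1, Cyp11b2, Cyp26a1 and Cyp24a1, with 4 to 18 arrays above the threshold, and 5 probes passed through a single group (Cyp2d34, Cyp2j5, Cyp3a25, Cyp4a10 and the second Cyp26b1 probe).

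**Figure D1:**
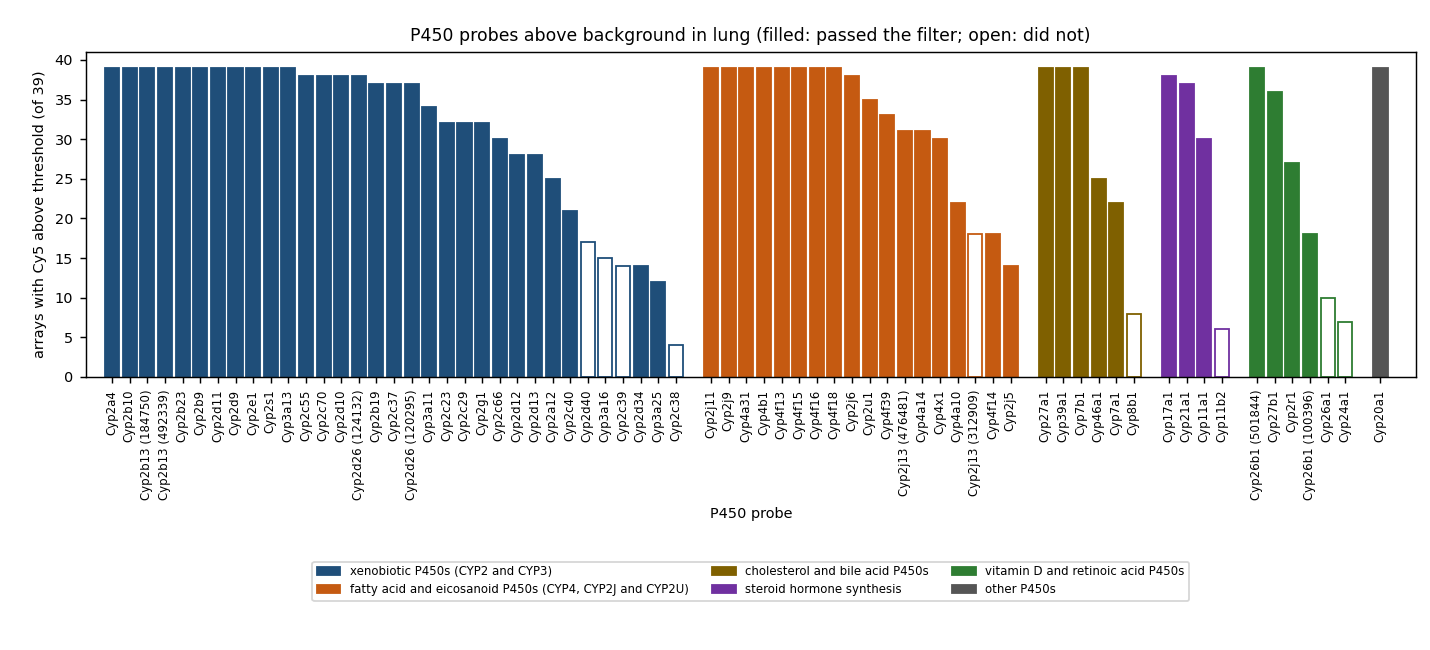
Number of arrays, of 39, on which the Cy5 signal of each P450 probe was above the array's threshold, by class (colour). Filled bars are the 59 probes that passed the filter and open bars the 9 that did not, and 24 bars reach 39.

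A group of P450 genes was high in lung against the reference on every array. With a mean log2 ratio of at least 2 and a signal above the threshold on all 39 arrays, 11 probes for 10 genes met this description, the nearest on either side of that limit being Cyp2b10 at 2.17 and Cyp26b1 at 1.58. A ratio to the reference depends on the reference pool too and does not rank the genes. Cyp4b1, a lung P450 that activates furans and aromatic amines and hydroxylates fatty acids, had a mean ratio of 5.45 over the 39 arrays with a range of 3.39 to 6.49. Its group means ran from 5.23 ± 0.80 (SD, n = 5) in 12 week smoke and break to 5.87 ± 0.72 (SD, n = 5) in 6 week smoke. Its Cy5 spot was at the scanner limit on 13 arrays, so that high values are compressed. Arrays of the earliest of the 5 runs of exposure labels had a median of 4.26 (n = 8), and those of the later runs 5.63 to 5.97, in parallel with the lower club cell and epithelium markers of that run, whose part in it was not tested.

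Cyp2b9, a constitutive CYP2B enzyme, had a mean ratio of 5.07 with a range of 4.14 to 6.11. Cyp2a4, a testosterone 15-alpha-hydroxylase closely related to the coumarin hydroxylase Cyp2a5, had a mean of 5.01 and ranged from 3.31 to 6.42. Cyp2s1, an epithelial P450 that is known to respond to dioxin in cell culture, had a mean of 3.54 and ranged from 2.62 to 4.24, with 4 arrays at the scanner limit. The other probes of this kind were both Cyp2b13 probes with means of 3.74 and 2.63, Cyp2j9 (2.96), Cyp27a1 (2.63), Cyp4f15 (2.59), Cyp7b1 (2.54) and Cyp2b10 (2.17). Cyp2c55, a CYP2C enzyme, lay at the other end with a mean of -2.10, and its 39 arrays ranged from -2.85 to -1.05. In this gene the reference carried more signal than the lung on every array.

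**Figure D2:**
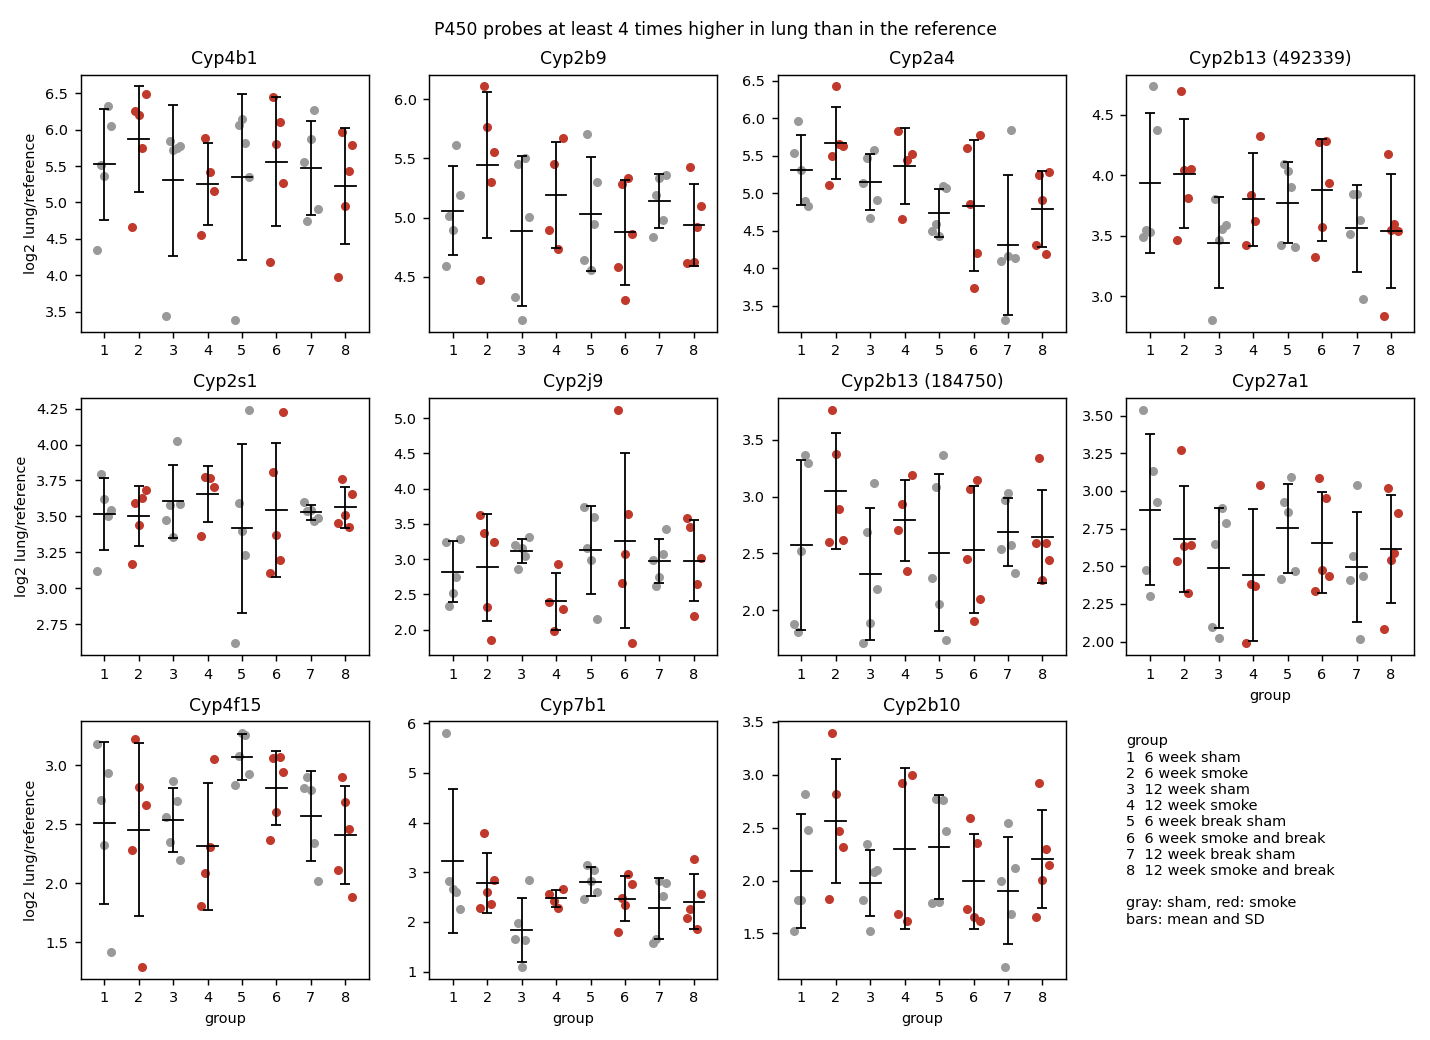
Log2 lung to reference ratio of the 11 P450 probes above the threshold on all 39 arrays with a mean ratio of at least 2, by group, 1 point per mouse with the mean and SD. Smoke (red) and sham (gray) points overlap in every panel.

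Several of these genes are tandem copies. Of the 47 members in the RefSeq promoter table, 10 lie on chromosome 7 (Cyp2a, Cyp2b, Cyp2s1, Cyp2e1 and Cyp2r1), 9 on chromosome 19 (Cyp2c and Cyp26a1) and 5 on chromosome 15 (Cyp2d). The promoters of the Cyp2b genes are printed because they show how close these copies are. They run from 250 bases before to 50 bases after the transcript start, 5′ to 3′, from RefSeq on GRCm38.p6. Those of Cyp2b9 (chr7:26173159-26173458, plus strand) and Cyp2b13 (chr7:26061245-26061544, plus strand) share 298 of 300 bases, with the bases that differ in capitals. That of Cyp2b10 (chr7:25897408-25897707, plus strand) shares 230 of 300 with either of them and is shown with GCGTG, the core of the element bound by the aryl hydrocarbon receptor, in capitals on either strand.
Cyp2b9: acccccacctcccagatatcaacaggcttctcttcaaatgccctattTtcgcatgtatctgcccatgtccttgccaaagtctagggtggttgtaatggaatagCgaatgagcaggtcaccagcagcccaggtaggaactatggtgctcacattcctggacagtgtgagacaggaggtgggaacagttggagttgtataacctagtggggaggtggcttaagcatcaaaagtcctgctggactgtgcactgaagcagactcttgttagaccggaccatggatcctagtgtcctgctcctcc
Cyp2b13: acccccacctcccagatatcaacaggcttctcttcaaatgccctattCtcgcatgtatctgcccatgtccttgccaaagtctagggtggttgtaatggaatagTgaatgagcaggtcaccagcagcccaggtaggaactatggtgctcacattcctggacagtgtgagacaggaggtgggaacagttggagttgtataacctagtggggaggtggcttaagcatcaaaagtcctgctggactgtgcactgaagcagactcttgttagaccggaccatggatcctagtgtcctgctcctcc
Cyp2b10: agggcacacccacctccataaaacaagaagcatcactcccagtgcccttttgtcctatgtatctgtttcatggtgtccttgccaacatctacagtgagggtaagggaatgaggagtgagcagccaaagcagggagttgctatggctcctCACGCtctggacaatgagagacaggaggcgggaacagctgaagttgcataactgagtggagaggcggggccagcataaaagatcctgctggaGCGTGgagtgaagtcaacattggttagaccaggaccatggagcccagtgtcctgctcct
The arrays do not settle how far copies this close share signal, and values of the Cyp2a, Cyp2b, Cyp2c and Cyp2d probes are uncertain to that extent. The GCGTG core, searched on both strands with its reverse complement CACGC, was found in 32.4% of all 32851 promoters of this length and in 10 of the 54 promoters of the members (18.5%). The Cyp2b10 window held it at -101 and -9 from the start. Among the members high in lung, Cyp2j9 and Cyp2b10 held it.

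The main question of the study was the response to MTS. No P450 probe outside the CYP1 family passed the threshold of the limma test (Benjamini-Hochberg adjusted p under 0.05 over all 17560 probes) in any smoke comparison. In 6 week smoke against 6 week sham 0 of 59 members passed, where 0.0626% of all probes did. At unadjusted p under 0.05 there were 2 members (3.39%) against 8.41% of all probes. In 12 week smoke against 12 week sham 0 of 59 passed against 0.433% of all probes, and 1 member (1.69%) against 9.37% had an unadjusted p under 0.05. Over both durations 0 of 59 passed against 1.22% of all probes, and 7 members (11.9%) against 12.2% had an unadjusted p under 0.05. With single arrays left out, the count at unadjusted p under 0.05 went from 1 to 10 at 6 weeks, from 1 to 3 at 12 weeks and from 3 to 7 over both. At 6 weeks it was 10 (16.9%, against 9.77% of all probes) without 6 week sham replicate 3, 9 (15.3%, against 9.23%) without replicate 5 and 7 (11.9%, against 7.85%) without replicate 4 of that group, so that the 6 week share lay below or above that of all probes depending on the array left out. Cyp1a1 rose by 4.42 (SE 0.44) and Cyp1b1 by 2.92 (SE 0.28) on the log2 scale over both durations, with limma adjusted p of 1.0e-07 and 5.4e-08, so that the smoke effect on the receptor's known targets was plain in the same arrays. The excluded club cell gene Cyp2f2 differed by -0.01 (SE 0.24).

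Without 6 week sham replicate 2 and the 3 arrays with high hepatocyte markers, 0 of 59 members passed in each of these 3 comparisons, and 1, 3 and 3 had an unadjusted p under 0.05, beside 7.29%, 9.75% and 11.5% of all probes. The intervals show how large a change in the ratio could have been missed. Over both durations the 95% interval of the log2 fold change lay within a 2-fold change in either direction for 51 of 59 members and within 1.5-fold for 35. At 6 weeks alone it lay within 2-fold for 41 and within 1.5-fold for 19. At 12 weeks alone these counts were 42 and 20, so a 1.5-fold change at a single duration was not excluded for most members. For Cyp2s1 the difference over both durations was 0.08 (95% interval -0.15 to 0.30) and for Cyp4b1 it was 0.12 (-0.36 to 0.60), where the scanner limit compresses high values.

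**Figure D3:**
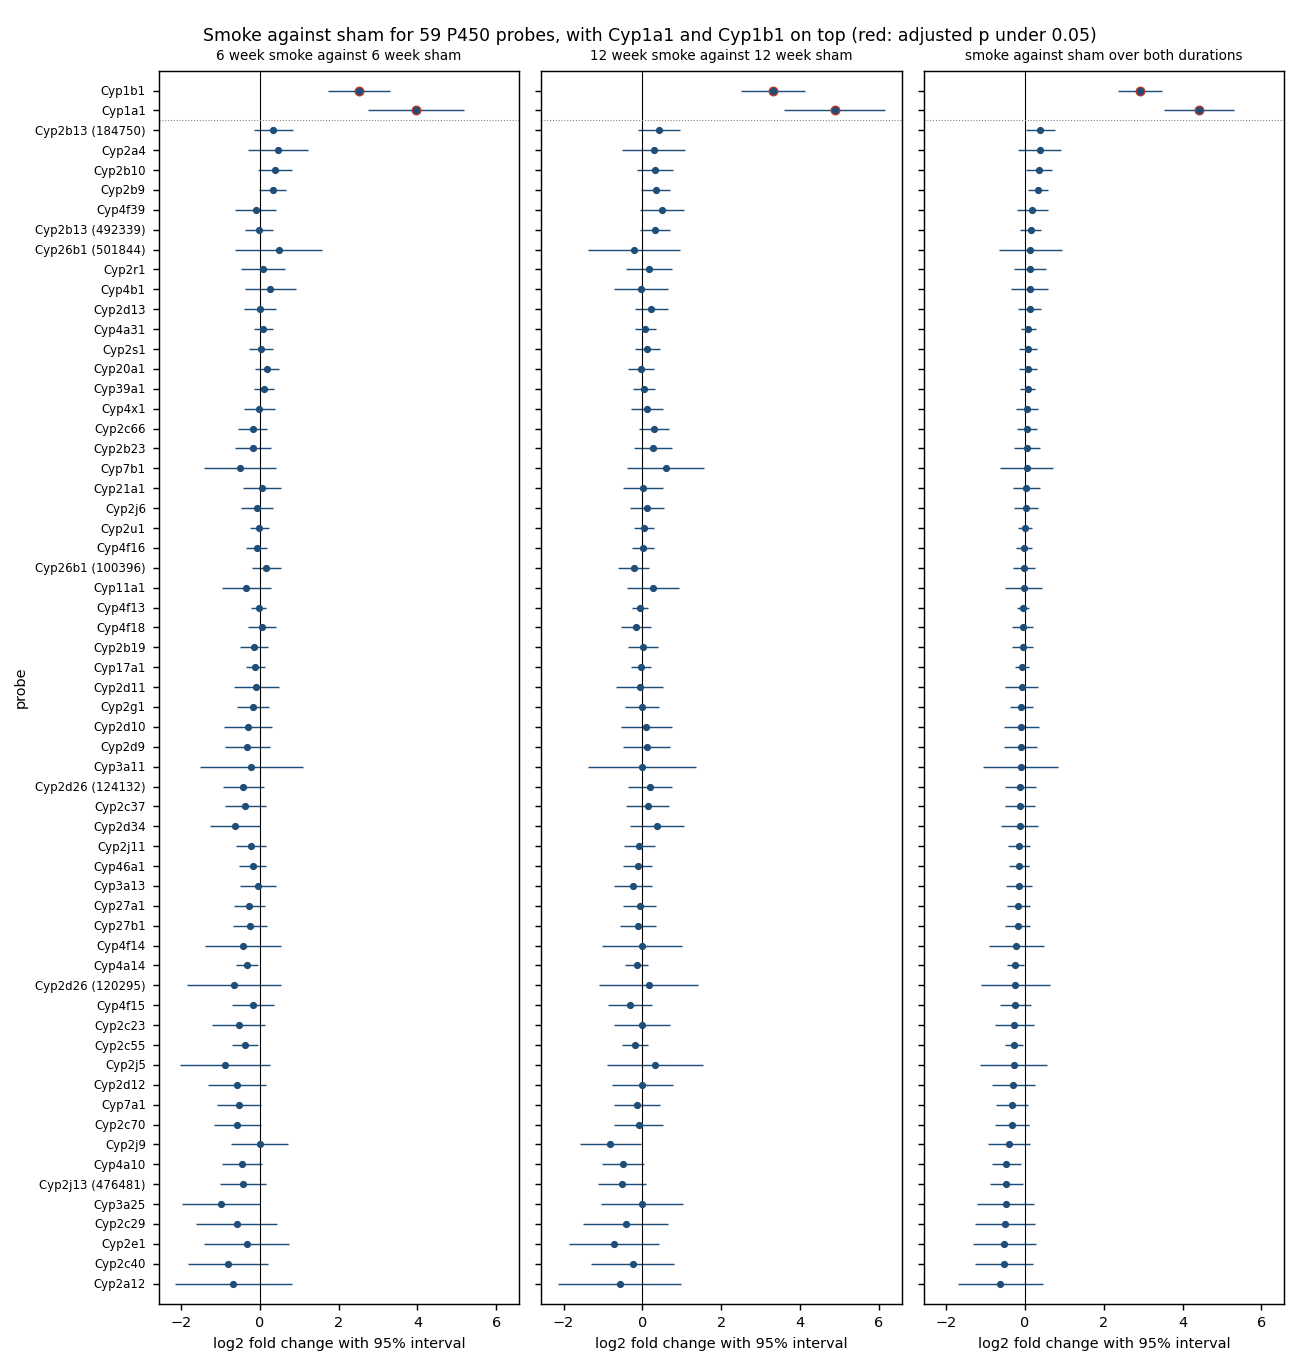
Log2 fold change with its 95% interval for smoke against sham at 6 weeks, at 12 weeks and over both durations, for the 59 P450 probes that passed the filter, with Cyp1a1 and Cyp1b1 on top. None of the 59 has an adjusted p under 0.05, and Cyp1a1 and Cyp1b1 (red) do in all 3 panels.

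The 7 members with an unadjusted p under 0.05 over both durations were 3 CYP2B probes with positive values and Cyp4a10, Cyp4a14, Cyp2c55 and Cyp2j13 with negative ones. For Cyp2b9 the 5 arrays of 6 week sham read 4.59, 5.01, 4.90, 5.61 and 5.19 and those of 6 week smoke 4.48, 6.11, 5.76, 5.30 and 5.56. At 12 weeks the sham arrays read 4.33, 5.46, 4.14, 5.51 and 5.01 and the smoke arrays 4.90, 5.45, 4.74 and 5.68. Sham and smoke overlapped at either duration. The fitted difference was 0.33 (SE 0.12, limma adjusted p = 0.23), and smoke was the higher at 6 weeks in 3 of the 4 runs that held both groups, and likewise at 12 weeks in 3 of 4.

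For Cyp2b10, the phenobarbital-inducible CYP2B enzyme, 6 week sham read 1.52, 1.82, 1.82, 2.82 and 2.48 and 6 week smoke 1.82, 3.39, 2.82, 2.47 and 2.32. At 12 weeks sham read 1.82, 2.35, 1.53, 2.08 and 2.10 and smoke 1.68, 2.92, 1.61 and 3.00. The 12 week smoke mice fell into a high pair above every sham value and a low pair below most of them. The pairs went with the run of exposure labels, the low pair in runs 1 and 2 and the high pair in runs 3 and 4. Over all groups the Cyp2b10 medians of runs 1 to 4 were 1.76, 1.74, 2.65 and 2.77. The difference was 0.36 (SE 0.16, limma adjusted p = 0.34). Of the Cyp2b13 probes, the weaker gave 0.39 (SE 0.18, limma adjusted p = 0.38) and the stronger 0.14 (SE 0.13). Without the 3 arrays with high hepatocyte markers, Cyp2b9 differed by 0.32 (SE 0.13), Cyp2b10 by 0.32 (SE 0.17) and the weaker Cyp2b13 probe by 0.30 (SE 0.18).

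Several CYP2B probes moved between mice together with markers of alveolar type II cells, and these markers were themselves 0.22 higher in smoke at the median of their 9 probes, none of which passed the test. Across the 39 arrays, after removing group and run means, the correlation with the mean of the alveolar type II markers was r = 0.64 for Cyp2b9 (rho = 0.61), 0.66 for the stronger Cyp2b13 probe (rho = 0.72), 0.67 for Cyp2b10 (rho = 0.51) and 0.66 for Cyp4b1 (rho = 0.57). Each r had a permutation p of 1e-05, the smallest that the 100000 permutations can give, and an adjusted p of 0.00011 over the 44 relations computed. The rho values had adjusted p of 0.00132, 0.00044, 0.00495 and 0.00167. Without the 2 arrays farthest from the median of the marker mean, r was 0.61, 0.68, 0.45 and 0.47, and within the 5 runs it ranged from 0.12 to 0.96 for these 4 probes. The weaker Cyp2b13 probe followed these markers less closely (r = 0.40, rho = 0.40, adjusted p = 0.032 and 0.0359, r = 0.42 without the 2 farthest arrays, -0.04 to 0.84 within runs), a difference that was not tested. Cyp2s1 went most closely with the ciliated cell markers (r = 0.62, rho = 0.69, adjusted p = 0.00035 and 0.00066). Its r was 0.59 without the 2 farthest arrays and 0.49 to 0.77 within runs. The club cell markers gave r = 0.49 for Cyp2s1. Cyp4f15 and Cyp2a4 went with the club cell markers at r = 0.54 and 0.49 and with the ciliated cell markers at 0.48 and 0.46. Cyp2b9, the stronger Cyp2b13 probe and Cyp2b10 also followed the ciliated cell markers (r = 0.54, 0.52 and 0.48). Most of these probes thus went with more than 1 marker list. Arrays share their normalisation, and the part of cell composition in these values was not tested.

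The other 4 of the 7 read lower in smoke. For Cyp4a10, a peroxisome proliferator-responsive omega-hydroxylase, 6 week sham read 0.84, 0.03, -0.07, -0.01 and 0.80 and 6 week smoke -0.21, 0.09, -0.41, 0.10 and 0.00. At 12 weeks sham read 0.68, 0.72, 0.34, -0.34 and 0.04 and smoke -0.37, -0.44, 0.41 and -0.23. The groups overlapped, and the difference over both durations was -0.47 (SE 0.18, limma adjusted p = 0.24). The probe was above the threshold on only 22 of 39 arrays. Its neighbour Cyp4a14, regulated like it, differed by -0.24 (SE 0.10, limma adjusted p = 0.31), and was lower in smoke at each duration in each of the 4 runs that held both groups. Cyp2c55 differed by -0.28 (SE 0.12, limma adjusted p = 0.30) and Cyp2j13 by -0.47 (SE 0.21, limma adjusted p = 0.33). For all 4, 6 week sham replicate 1, with its high hepatocyte markers, was the highest 6 week sham array (0.84, 0.62, -1.33 and 1.58). Over the alternatives, including those without the 3 arrays, the differences were -0.47 to -0.30, -0.24 to -0.16, -0.29 to -0.22 and -0.49 to -0.34. These ranges leave aside the fits without single arrays. Of the second Cyp2j13 probe no test is given, since it did not pass the filter. In 12 week smoke alone, Cyp2j9, which metabolises arachidonic acid, read 2.40, 1.97, 2.93 and 2.30 against 3.21, 2.86, 3.15, 3.05 and 3.31 in 12 week sham. A single smoke value lay within the sham range, and the difference was -0.82 (SE 0.38, limma adjusted p = 0.49). At 6 weeks the same probe read 3.63, 3.37, 2.32, 1.85 and 3.24 in smoke and 3.24, 2.33, 2.51, 2.75 and 3.29 in sham. The difference between the durations, -0.81 (SE 0.52), had a limma adjusted p of 0.97.

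**Figure D4:**
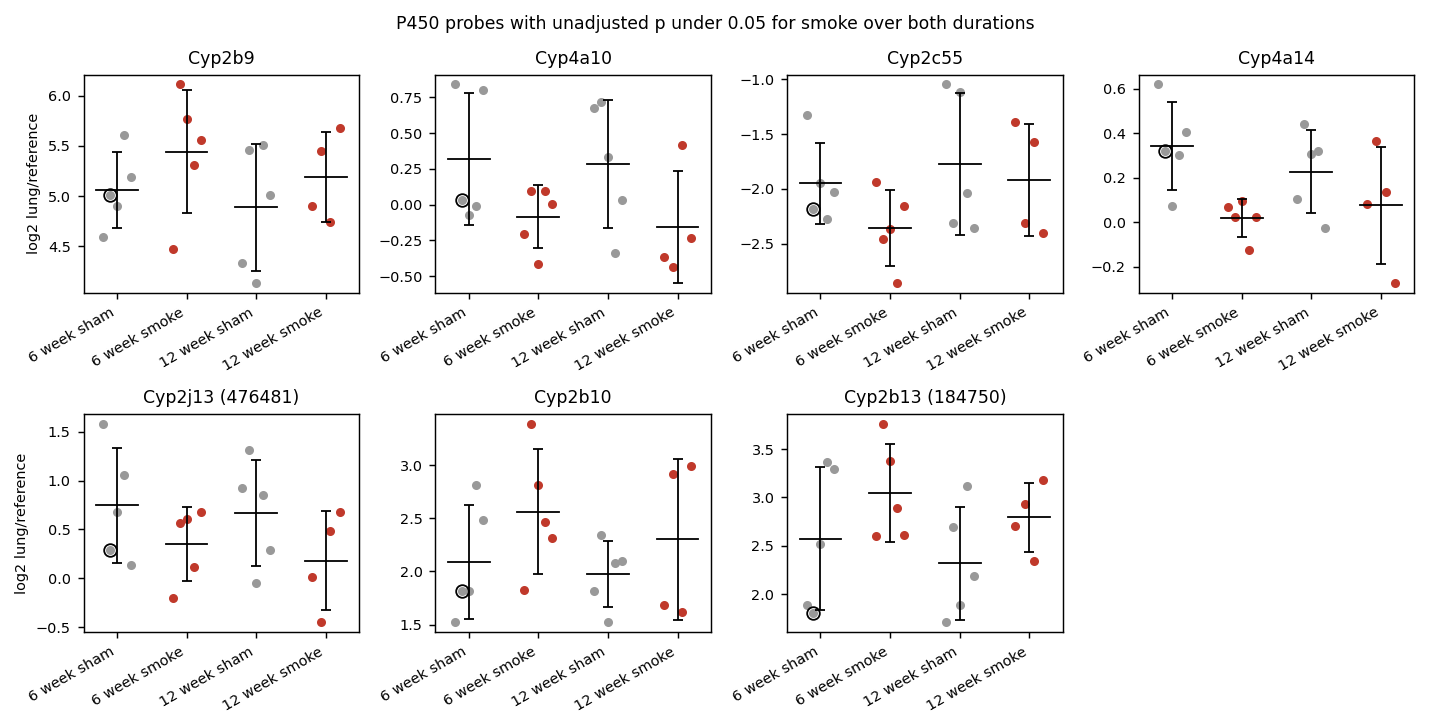
Log2 lung to reference ratio of the 7 P450 probes with an unadjusted p under 0.05 for smoke over both durations, 1 point per mouse with the mean and SD, and 6 week sham replicate 2 circled. Smoke and sham overlap at both durations in all 7 panels.

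By class, the median log2 fold change over both durations was -0.11 for the 29 xenobiotic probes, -0.06 for the 17 fatty acid and eicosanoid probes, -0.15 for the 5 cholesterol and bile acid probes, -0.04 for the 3 steroid hormone probes and 0.05 for the 4 vitamin D and retinoic acid probes, beside 0.01 for all probes. At 6 weeks 44 of 59 members lay below 0 with a median of -0.18. Without the 3 arrays high in hepatocyte markers 28 of 59 did, with a median of 0.01. The shift of the members at 6 weeks thus rested on those arrays, of which 6 week sham replicate 1 is the only array of these 2 groups. No member had smoke and sham values that did not overlap, at 6 weeks (0.849% of all probes) or at 12 weeks (3.37%). For no member did the difference of the smoke effect between durations pass the limma test (0 of 59 and 0% of all probes with an adjusted p under 0.05, 1 member and 4.86% at unadjusted p under 0.05).

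After the break no member passed the limma test either. In 6 week smoke and break against 6 week break sham 0 of 59 passed (0% of all probes), with 2 members and 4.32% of all probes at an unadjusted p under 0.05. In 12 week smoke and break against 12 week break sham 0 of 59 passed (0% of all probes), with 2 members and 6.43% of all probes at an unadjusted p under 0.05. The largest differences were of genes with single high arrays, and the hepatocyte markers had medians of -0.91 after 6 weeks and 0.94 after 12 weeks of exposure in the same comparisons. Cyp26b1, which clears retinoic acid, read 0.78, 1.99, 4.69, 2.34 and 1.45 in 6 week smoke and break and 1.27, 1.10, 1.22, 1.79 and 1.35 in 6 week break sham. Here 1 mouse at 4.69 stood far above the rest, and the difference was 0.91 (SE 0.53, limma adjusted p = 1.00), or 0.20 without that mouse. The second Cyp26b1 probe, above the threshold on 18 arrays, read -0.07 in that mouse. Cyp2a12 differed by -0.95 (SE 0.71) after 6 weeks and 0.86 (SE 0.71) after 12 weeks of exposure, with a high array in the sham group of the former and in the smoke group of the latter. Next were the stronger Cyp2d26 probe at -0.91 (SE 0.58) in the former comparison, and Cyp2e1 at 0.76 (SE 0.53) and Cyp3a25 at 0.60 (SE 0.48) in the latter. Cyp3a25 was above the threshold on 1 array of 12 week break sham and 2 of 12 week smoke and break. Cyp2b9 had a smoke effect without the break larger by 0.51 (SE 0.17) than with it, at a limma adjusted p of 0.27. For this difference of smoke effects 0 of 59 members and 0.125% of all probes passed, and 2 members and 9.58% of all probes had an unadjusted p under 0.05.

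The sham groups were also compared among themselves. Between these groups the time under or after restraint and the age of the mice changed together and cannot be told apart. In break sham against sham over both durations 0 of 59 members passed against 0.911% of all probes, with 4 members (6.78%) and 12.9% of all probes at an unadjusted p under 0.05. Cyp2c55 came nearest, at -0.38 (SE 0.11, limma adjusted p = 0.0997). Its sham arrays read -1.33, -2.18, -1.94, -2.28 and -2.02 at 6 weeks and -1.05, -2.31, -1.12, -2.04 and -2.35 at 12 weeks, and its 10 break sham arrays ranged from -2.76 to -1.76. Most values overlapped, and the 3 highest were sham arrays. Cyp2a4 differed by -0.66 (SE 0.26), Cyp4f18, a leukotriene B4 hydroxylase of myeloid cells, by 0.33 (SE 0.12) and Cyp39a1 by -0.22 (SE 0.09), all with a limma adjusted p above the threshold. In 12 week sham against 6 week sham 0 of 59 members and 0% of all probes passed, and 12 members (20.3%) had an unadjusted p under 0.05, all lower at 12 weeks, against 6.86% of all probes. Without the 3 arrays with high hepatocyte markers 5 members had one, against 6.7% of all probes. The test for any difference among the 8 groups called 0 of 59 members and 3.74% of all probes, with 6 members (10.2%) and 17.3% of all probes at an unadjusted p under 0.05.

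At the median, P450 probes varied more between arrays than all probes did. The median residual SD, after groups and runs, was 0.40 log2 units over the 59 members and 0.25 over all 17560 probes. The 3 arrays with high hepatocyte markers were included and signal strength was not matched. The part of differences between mice in this was not tested. Many of the widest ranges were of P450 genes known for their expression in liver. Cyp2a12, a steroid hydroxylase of liver, read 5.61 in 6 week sham replicate 1, 3.69 in 6 week break sham replicate 4 and 3.57 in 12 week smoke and break replicate 3. In the other 36 arrays it ranged from -0.81 to 1.80 with a median of 0.43. Cyp3a11, the main drug-metabolising CYP3A enzyme of mouse liver, read 3.98, 2.89 and 2.66 in the same arrays against -0.58 to 1.96 in the others. Cyp2c29 read 4.23, 2.48 and 2.31 against -0.13 to 1.01. The stronger Cyp2d26 probe read 4.63, 2.86 and 2.64 against -0.38 to 1.55. The same 3 mice, from a sham, a break sham and a smoke and break group, stood above all others in each of these genes.

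This held for 14 of the 59 members, in which all 3 arrays exceeded every other array: Cyp2a12, Cyp3a11, Cyp3a25, Cyp2c23, Cyp2c29, Cyp2c40, Cyp2c70, Cyp2d9, Cyp2d10, Cyp2d11, Cyp2d12, Cyp2d26 (1 probe), Cyp2j5 and Cyp4f14. Cyp2c39, which did not pass the filter, read 3.12, 2.05 and 2.15 there and at most 1.42 elsewhere. In 26 of 59 members the highest of all 39 arrays was 6 week sham replicate 1, which also had the highest median Cy5 signal (1532). Among them was Cyp7b1, an oxysterol hydroxylase, with 5.80 against 1.10 to 3.78 in the 36 others. The share of all probes was computed neither for these 26 nor for the 14 above, so neither count is shown to be particular to P450 genes. Cyp2e1, the ethanol-inducible P450, also read 3.05 in 6 week break sham replicate 1, close to its 3.11 and 2.76 in 12 week smoke and break replicate 3 and 6 week break sham replicate 4. Of the 11 probes high in lung, Cyp7b1 and Cyp27a1 were highest in 6 week sham replicate 1, the latter with 3.54 against at most 3.27 in the 36 others, and neither exceeded all others in the remaining 2 of the 3 arrays. The other 9 stayed within the range of the 36 others in all 3 arrays. Cyp2b9, for example, read 4.59, 4.94 and 4.62 and Cyp2s1 3.12, 3.23 and 3.51.

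The 3 arrays were defined by the mean of 5 hepatocyte markers, so that high values of those 5 there follow from that choice. Alb and Apoa2 of 6 week sham replicate 1 still lay within the range of the 36 others. Albumin (Alb) read 2.01, 3.81 and 4.38 against -0.12 to 2.81 in the 36 others, fibrinogen beta (Fgb) 3.50, 3.30 and 3.88 against -0.16 to 2.20, fetuin (Ahsg) 4.18, 3.78 and 3.39 against 0.26 to 3.26 and Apoa1 4.35, 2.18 and 2.36 against -1.78 to 1.44. Apoa2 read 2.56, 3.38 and 3.69 against at most 2.82, and Ttr, above the threshold on 4 arrays, 3.40, 1.17 and 0.83 against at most 1.70. Of the 7 listed markers, 6 were on the array and 5 passed the filter, and none of the 5 passed the limma test between smoke and sham. For some members the pattern was graded beyond the 3 arrays. Across the other 36 arrays, after removing group and run means, the marker mean correlated with the stronger Cyp2d26 probe (r = 0.69, rho = 0.73), Cyp3a11 (r = 0.66, rho = 0.64), Cyp2c40 (r = 0.64, rho = 0.61), Cyp2a12 (r = 0.63, rho = 0.60) and Cyp2d11 (r = 0.60, rho = 0.57). The permutation p adjusted over 59 members was 0.00059, 0.00059, 0.000885, 0.000787 and 0.00165 for r and 0.00059, 0.00162, 0.00162, 0.00162 and 0.00307 for rho. Without the 2 arrays farthest from the median, r was 0.63, 0.65, 0.55, 0.66 and 0.53. Within single runs of 7 or 8 arrays r went from -0.26 to 0.91 over these probes. In all, 8 members passed for r, each with a positive r, and 6 of these for rho. The weaker Cyp2d26 probe passed for r only (r = 0.47, rho = 0.44, permutation p adjusted to 0.0284 and 0.0524). Among the 8 was Cyp4b1, high in lung on every array (r = 0.45, rho = 0.40, permutation p adjusted to 0.0469 and 0.089). Also highest in the 3 arrays, Cyp2c23, Cyp2c70, Cyp2d9, Cyp2d10, Cyp2d12, Cyp2j5, Cyp3a25 and Cyp4f14 did not pass, with r from 0.01 to 0.38. The part of liver RNA in these values was not tested.

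**Figure D5:**
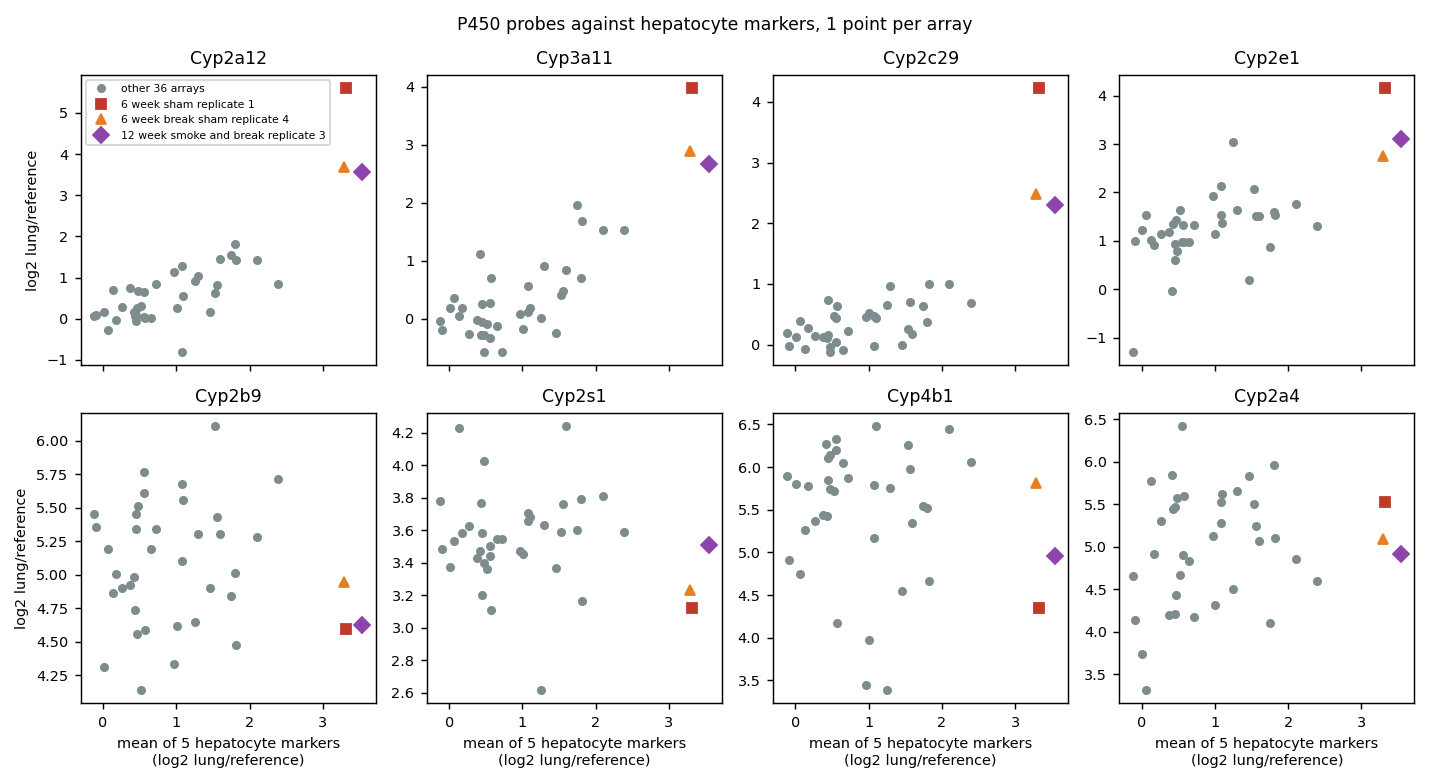
Log2 lung to reference ratio of 8 P450 genes against the mean log2 ratio of 5 hepatocyte markers, 1 point per array. In the upper row Cyp2a12, Cyp3a11 and Cyp2c29 rise with the markers and are highest in the 3 marked arrays (Cyp2e1 in 2 of them), and in the lower row the lung P450s Cyp2b9, Cyp2s1, Cyp4b1 and Cyp2a4 are not highest there.

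The 13 genes with a promoter in the table among those highest in the 3 arrays, Cyp2c39 included, lie on 6 chromosomes, with 4 on chromosome 15, 4 on chromosome 19 and 2 on chromosome 5. Of these genes 11 (84.6%) had the letters TATAAA on either strand of the window (reverse complement TTTATA), against 15.7% of all 27025 genes. The position was not limited, so a match need not be a TATA box. It lay near the 5′ end of the Cyp3a11 window and the 3′ end of the Cyp2c40 window printed below. Further, 3 (23.1%) had CAAAGTCC (reverse complement GGACTTTG), the core of sites bound by the liver factor HNF4A, against 1.63% of all genes. Of all 47 P450 members with a promoter, 21 (44.7%) had TATAAA and 8 (17.0%) had CAAAGTCC, so that the latter was about as frequent in the whole family. Tandem copies share sequence by descent, so these genes are not independent. For the genes high in lung on all arrays, 1 of 9 had TATAAA and 1 of 9, Cyp2a4, had CAAAGTCC. The promoters of Cyp3a11 (chr5:145879805-145880104, minus strand) and Cyp2c40 (chr19:39812765-39813064, minus strand) are printed as the genes of this kind that carry the core and followed the hepatocyte markers most closely, with CAAAGTCC in capitals at -109 and -45 from the start. A match is a description and shows no binding.
Cyp3a11: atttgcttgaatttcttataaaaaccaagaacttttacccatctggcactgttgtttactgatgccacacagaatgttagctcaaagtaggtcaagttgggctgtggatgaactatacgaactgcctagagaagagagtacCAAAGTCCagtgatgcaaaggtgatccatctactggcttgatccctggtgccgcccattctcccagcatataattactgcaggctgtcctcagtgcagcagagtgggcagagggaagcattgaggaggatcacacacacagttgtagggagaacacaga
Cyp2c40: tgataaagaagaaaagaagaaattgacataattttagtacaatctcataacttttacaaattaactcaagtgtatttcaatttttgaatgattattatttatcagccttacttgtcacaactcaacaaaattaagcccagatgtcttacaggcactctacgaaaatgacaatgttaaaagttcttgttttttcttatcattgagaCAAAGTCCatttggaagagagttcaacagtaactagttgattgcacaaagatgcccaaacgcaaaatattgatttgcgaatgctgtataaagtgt

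This variation between arrays bore directly on the largest smoke differences. At 6 weeks the 6 members with the largest differences were Cyp3a25, Cyp2j5, Cyp2c40, Cyp2a12, Cyp2d26 (stronger probe) and Cyp2d34, at -0.98 (SE 0.49), -0.89 (SE 0.57), -0.81 (SE 0.49), -0.67 (SE 0.73), -0.66 (SE 0.59) and -0.63 (SE 0.32), none with a limma adjusted p under 0.60. Of these, Cyp3a25, Cyp2j5 and Cyp2d34 were above the threshold on 12, 14 and 14 of 39 arrays. In 6 week sham and in 6 week smoke each was above it on 2 of 5 arrays. Each passed the filter through 1 break group only, which held 1 of the 3 arrays. For Cyp2j5, an arachidonic acid epoxygenase of liver and kidney, 6 week sham read 4.58, 0.32, -0.16, -0.02 and -0.14 and 6 week smoke -0.64, -0.04, 0.08, 0.70 and 0.11. A single sham array carried the difference. Without the 3 arrays it became 0.12 (SE 0.27) for Cyp2j5, 0.34 (SE 0.35) for Cyp2a12 and 0.25 (SE 0.23) for Cyp2d26, and -0.16 (SE 0.24), -0.04 (SE 0.27) and -0.26 (SE 0.23) for Cyp3a25, Cyp2c40 and Cyp2d34. Over both durations the largest were Cyp2a12 at -0.62 (SE 0.53), Cyp2c40 at -0.53 (SE 0.36), Cyp2e1 at -0.53 (SE 0.39), Cyp2c29 at -0.51 (SE 0.37) and Cyp3a25 at -0.49 (SE 0.36), and without the 3 arrays these became -0.07, -0.11, -0.22, -0.09 and -0.05. At 12 weeks, with none of the 3 arrays in either group, the largest after Cyp2j9 were Cyp2e1 at -0.72 (SE 0.56), where 12 week smoke replicate 2 read -1.30 against 0.79 to 1.92 in sham and the difference was -0.08 without that array and -1.31 without 12 week smoke replicate 4, Cyp7b1 at 0.59 (SE 0.48) and Cyp2a12 at -0.57 (SE 0.76).

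The partner proteins of P450 enzymes were examined next. None of 9 probes listed for electron donors and other P450 partners (cytochrome b5 proteins and their reductases, Fdx1, Pgrmc1 and Pgrmc2), among them the mitochondrial ferredoxin Fdx1 at 0.18 (SE 0.08) and cytochrome b5 Cyb5a at 0.19 (SE 0.08) over both durations, passed the limma test, and the P450 reductase Por was not analysed here. Nor did any pass of 8 heme synthesis probes or 8 probes for epoxide hydrolases and flavin monooxygenases. Their medians over both durations were -0.01, -0.04 and -0.02, beside 0.01 for all probes. Of 19 nuclear receptor probes that passed the filter 1 was called, Pparg, the lipid receptor of alveolar macrophages and fat. It rose by 0.71 (SE 0.12, limma adjusted p = 0.0019) at 12 weeks and by 0.44 (SE 0.09, limma adjusted p = 0.0043) over both durations, and differed by 0.02 (SE 0.11) in 12 week smoke and break. Of 5 macrophage marker probes 1 passed over both durations, Marco, a scavenger receptor of alveolar macrophages, which rose by 0.75 (SE 0.18, limma adjusted p = 0.025). The 5 ranged from -0.03 for Msr1 to 0.75 with a median of 0.50, and at 12 weeks 0 of 5 passed, with a range of -0.14 to 0.78. Fat markers had a median of 0.43 with 0 of 6 passing. The part of cell composition in the Pparg value was not tested. The xenobiotic receptors that drive Cyp2b and Cyp3a in liver, Nr1i3 (CAR) and Nr1i2 (PXR), differed by -0.20 (SE 0.13) and -0.36 (SE 0.21), and Hnf4a by -0.12 (SE 0.08).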

How the data were processed

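Lung RNA of 39 mice (Cy5) was hybridised against a universal mouse reference (Cy3) on 2-colour Agilent arrays, with the same dye orientation throughout. Per the file headers, the authors scanned the arrays and deposited spot and local background intensities that were neither corrected nor normalized. The authors also deposited a table of log2 ratios of the same arrays, used here only as an alternative, which correlated with the values here at 0.975 to 0.996 per array. The genome build is not given in the sources used here, and promoters are RefSeq's on GRCm38.p6, in which 47 of 64 member genes were found.

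Median intensities were corrected with normexp (offset 50), normalized by loess on the gene spots of each array, and averaged per probe (R 4.3.3, limma 3.58.1). A probe was kept where its Cy5 intensity on 4 or more arrays of any group exceeded the mean of that array's negative controls by 3 SD, both trimmed by 5%, which left 17560 of 20868 probes. With limma, group means and a fixed block for the 5 runs of exposure labels were fitted over all of these, with Benjamini-Hochberg adjustment and a threshold of 0.05. The number of arrays limits the precision, and each mouse was a replicate. Correlations used residuals after group and run, with 100000 two-sided permutations. The code was tested on simulated data.

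The members, gene lists and tests were chosen with earlier results of these data known. Named were the 6 members with the largest change in each smoke comparison and the 3 largest in each break comparison, those with the highest Cy5 signal per class and those above the threshold on all arrays, and any member called. Members named for a low unadjusted p, a shift in the sham comparisons or a high value in the 3 arrays were chosen after their values were seen. Hepatocyte marker means more than 3 median absolute deviations above the median of the arrays defined the 3 arrays left out in an alternative. The alternatives were no background correction, median centring, the authors' log2 ratios, no filter, a filter on all arrays, no run block, array weights and leaving out each array.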

Additional observations from a re-analysis of the deposited data

Results flagged for a closer look

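Within each group of 4 or 5 mice, single arrays that stood apart from the rest by Dixon's criterion were sought for 18 P450 probes, in 144 pairs of probe and group. The 18 probes were those with the largest differences or lowest p in the smoke and break comparisons, which single arrays also shape, so the number of such values cannot be read against the rate of about 1 in 20 groups that chance flags. There were 14 such values, of which 12 were in the 3 arrays with high hepatocyte markers. In 6 week sham replicate 1 the high values were 3.69 for Cyp3a25, 4.58 for Cyp2j5, 4.30 for Cyp2c40, 4.63 for Cyp2d26, 4.16 for Cyp2e1, 5.80 for Cyp7b1 and 4.23 for Cyp2c29. In 12 week smoke and break replicate 3 they were 2.64 for Cyp2d26, 1.06 for Cyp2d34, 3.11 for Cyp2e1 and 2.31 for Cyp2c29, and in 6 week break sham replicate 4 it was 0.48 for Cyp4a14. The other values were a low Cyp2a12 of -0.81 in 12 week smoke replicate 4 and a Cyp2d26 of 0.62 in 12 week break sham replicate 1. All are log2 ratios of lung to reference, and their cause was not tested.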

How the results depend on the processing

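No paired analysis was possible because the replicate numbers follow accession order and pair no mice. The runs of exposure labels, which hold about 1 mouse of each group, were a block in the fit instead. In the 9 comparisons of groups, 0 members passed the limma test under every alternative run. The test for any difference among the 8 groups called 1 member with array weights (Cyp2b9, adjusted p = 0.0253, beside 7.2% of all probes), and leaving out single arrays gave 0 to 1: Cyp2a4 without 12 week break sham replicate 4 (adjusted p = 0.0199, beside 3.32% of all probes) and Cyp2c55 without 12 week smoke and break replicate 2 (adjusted p = 0.0391, beside 3.33%). The signs that turned belonged to 6 week smoke against 6 week sham, apart from Cyp2a12 over both durations. Leaving out single arrays gave -1.24 to 0.15 for Cyp2j5, -1.09 to 0.39 for Cyp2a12 and -0.99 to 0.29 for Cyp2d26, the upper ends without 6 week sham replicate 1, and -1.09 to -0.01 for Cyp2c40 and -0.85 to -0.06 for Cyp2a12 over both durations. In alternatives chosen after seeing the data, leaving out the 3 arrays with high hepatocyte markers gave 0.12 for Cyp2j5, 0.34 for Cyp2a12 and 0.25 for Cyp2d26. Leaving out 6 week sham replicate 2 as well gave 0.20, 0.67 and 0.38, 0.065 for Cyp2c40 and 0.088 for Cyp2a12 over both durations. The other 1410 single values and 477 counts kept their direction and side of the threshold. Signal near background limits the probes above the threshold on few arrays, and 53 of 68 probes passed with 5 trimmed SD in place of 3, or when all arrays of a group were required.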
